A study of Mus musculus with 9 samples.

Results

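Expression of 9 androgen-responsive prostate genes was followed in mouse prostate cancer cells. The 9 are Fkbp5, Zbtb16, Mme, Tmprss2, Pbsn, Msmb, Azgp1, Pmepa1 and Klk1. They were taken by symbol from the array annotation, in which each has 1 probe set, out of 22180 genes measured by 41345 probe sets. The RNA came from MYCCaP, a line from a prostate tumour of a mouse carrying a MYC transgene under a promoter derived from probasin. The AZD1208 group holds 3 lines from mice given AZD1208, an inhibitor of the PIM kinases, and the Vehicle group holds 3 lines from mice given vehicle. Per the title of the series, these lines came from resistant tumours that recurred in castrated mice, and both groups are labelled as grown without dihydrotestosterone (DHT), an androgen. The Parental group is the MYCCaP line itself, grown with DHT, on 3 arrays labelled as technical replicates and therefore counted as 1 sample. The 6 recurrent lines thus differ from Parental in the androgen of the medium and in their passage through a castrated mouse at the same time, and these cannot be told apart. The age and strain of the mice, and whether a line is a single clone or whether each line came from its own mouse, are not stated.

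Androgens act through the androgen receptor, a transcription factor that is held ready by chaperones, moves to the nucleus when it binds hormone and attaches to DNA at paired hexamers of the form AGAACA. In the prostate gland it drives the secretory programme of luminal cells, and its targets fall when a male is castrated. The glucocorticoid receptor binds nearly the same DNA element, so that several targets, Fkbp5 and Zbtb16 among them, can answer to either hormone. The members fall into 3 kinds by role. Fkbp5, Zbtb16 and Pmepa1 act inside the cell or on signalling. Mme and Tmprss2 are enzymes of the cell membrane. Pbsn, Msmb, Azgp1 and Klk1 are secreted proteins of the gland.

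Promoter sequences from RefSeq (build GRCm38.p6), from 250 bases before to 50 bases after a transcription start, were at hand for 6 members. Those of 3 are shown, because Mme had the largest difference from Parental, and Fkbp5 and Pbsn were the members whose AZD1208 and Vehicle lines did not overlap. Capitals mark the hexamer AGAACA or its complement TGTTCT, searched on both strands, and TATAAA on the strand of the gene.
Mme, chr3:63294961-63295260, plus strand: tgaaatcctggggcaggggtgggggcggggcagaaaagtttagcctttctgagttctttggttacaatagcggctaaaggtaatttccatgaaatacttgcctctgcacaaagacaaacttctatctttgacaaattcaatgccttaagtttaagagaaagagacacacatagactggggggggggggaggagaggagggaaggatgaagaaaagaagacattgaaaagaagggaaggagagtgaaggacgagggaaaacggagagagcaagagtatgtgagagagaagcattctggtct
Fkbp5, chr17:28486100-28486399, minus strand: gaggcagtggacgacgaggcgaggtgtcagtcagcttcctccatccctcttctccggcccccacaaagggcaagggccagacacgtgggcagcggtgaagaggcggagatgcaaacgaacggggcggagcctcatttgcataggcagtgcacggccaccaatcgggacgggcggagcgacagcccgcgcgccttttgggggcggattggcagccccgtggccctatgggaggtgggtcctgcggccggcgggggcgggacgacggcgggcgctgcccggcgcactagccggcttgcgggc
Pbsn, chrX:77853451-77853750, minus strand: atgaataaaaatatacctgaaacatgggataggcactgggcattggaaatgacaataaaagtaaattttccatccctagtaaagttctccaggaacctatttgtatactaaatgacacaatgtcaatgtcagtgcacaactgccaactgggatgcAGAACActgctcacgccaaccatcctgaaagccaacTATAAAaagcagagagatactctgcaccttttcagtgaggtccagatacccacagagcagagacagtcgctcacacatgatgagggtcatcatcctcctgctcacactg
The Pbsn window holds 1 hexamer, which begins 95 bases before the start (position -95), and a TATAAA at position -59. Neither motif occurs in the window of Fkbp5 or in any of the 3 windows of Mme. The other hexamer among the 8 windows of members lies in Azgp1, at position 15 after the start. The full element, AGAACA followed after 3 bases by TGTTCT, was in 0 of the 8 windows. Of all 32851 promoter windows of this length, 19% held a hexamer, 0.00913% the full element and 8.32% a TATAAA. Only these exact letters were searched, so an element that departs from them was not counted, in Pbsn or in any other window. The absence of a match therefore does not show that a window lacks a receptor element. A match is a description of the letters, and these windows leave out distant enhancers, where much of the receptor's binding is known to occur.

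The deposited values are log2 intensities, so that a difference of 1 is a 2-fold difference, and they carry no detection calls. The median SD of a gene was 0.25 between AZD1208 lines, 0.19 between Vehicle lines and 0.091 between the technical Parental arrays. On the first principal component (49.8% of the variance) AZD1208 2 (-44.8) and Vehicle 1 (-38.8) lay farthest from the Parental arrays (23.3 to 31.7), and AZD1208 3 (17.8) and Vehicle 3 (8.37) nearest. AZD1208 3 had the narrowest interquartile range, 2.87 against 2.98 to 3.12 on the other 8 arrays. Of the luminal markers with a named probe set, 7 of 8 passed the cutoff on low values, among them the transcription factors Foxa1 and Hoxb13 and the keratin gene Krt8. Their mean was 8.11 to 8.44 in AZD1208 lines, 8.16 to 8.39 in Vehicle lines and 8.57 to 8.61 on Parental arrays. The luminal keratin gene Krt19 was lower in all 6 lines than on every Parental array (difference -1.52), and the epithelial adhesion gene Epcam was below the cutoff.

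Mme and Zbtb16 were higher in all 6 recurrent lines than on every Parental array, and Fkbp5 lay above it only in Vehicle lines. None of the 9 genes was lower in all 6 lines, which grew without the androgen that the Parental medium contained. Of the 4 secreted products of the gland, Pbsn, Msmb and Klk1 were below the cutoff on low values, and Azgp1 was above it. Of the 9 members, 2 had all 6 lines above all 3 Parental arrays, where 5.10% of all genes with a symbol did, and 0 had all 6 below, where 3.86% did. A count of 0 among 9 is near a share of 3.86%, and so is no result about the members.

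**Figure D1:**
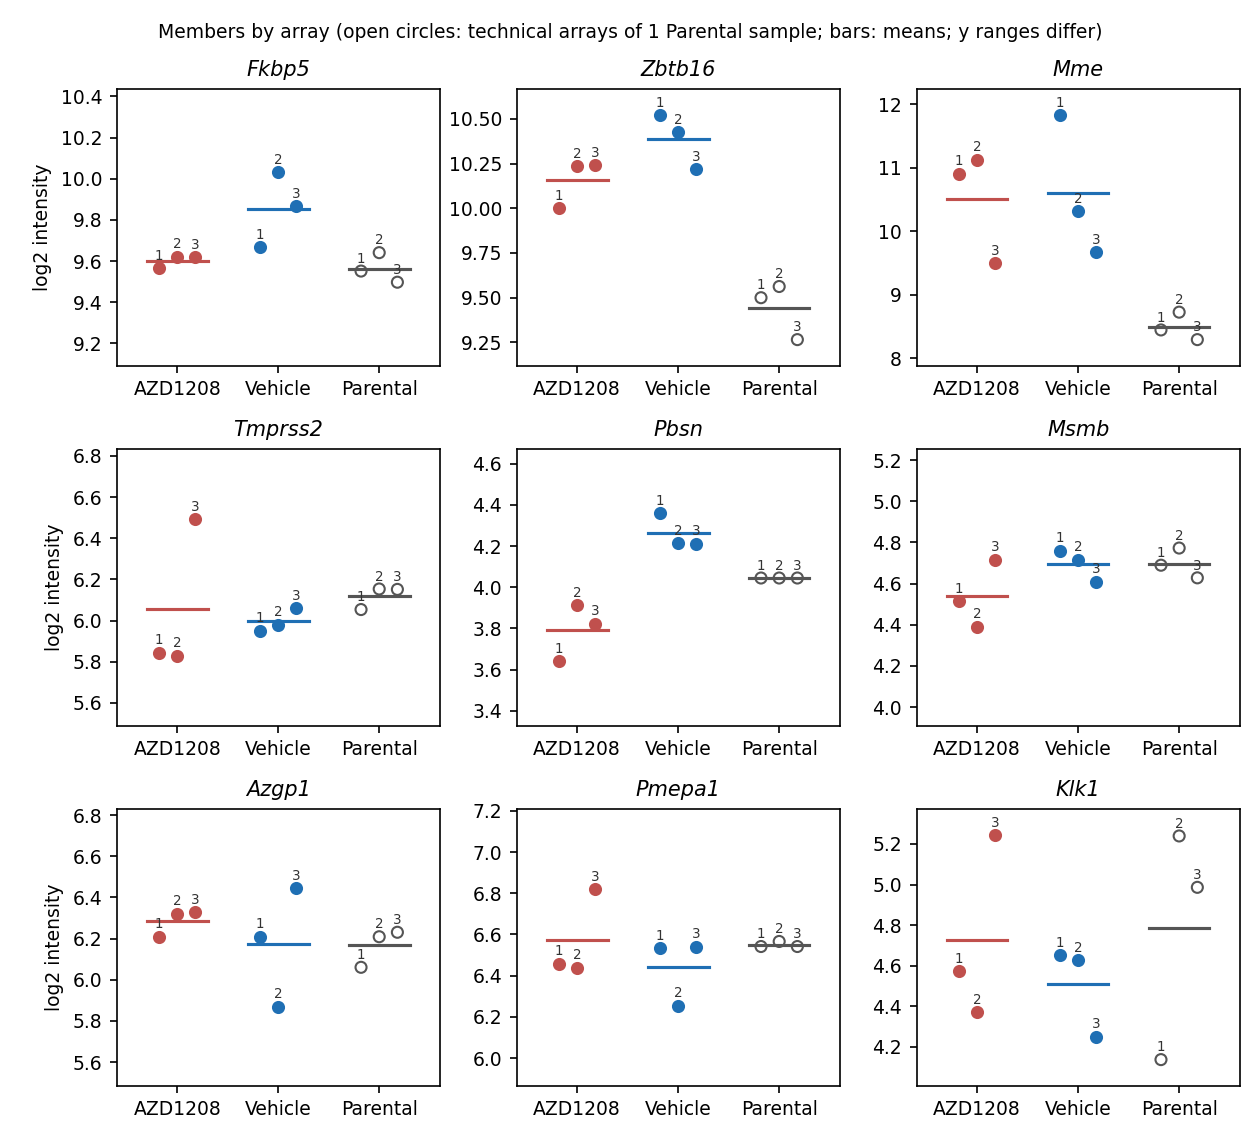
Log2 intensity (y axis) of the 9 members in AZD1208 lines, Vehicle lines and Parental arrays, each point 1 array numbered by replicate, with bars at group means and open circles for the technical Parental arrays. Mme (9.50 to 11.83) and Zbtb16 (10.002 to 10.52) lie above their Parental arrays in all 6 lines, and Pbsn lies below Parental in AZD1208 lines and above it in Vehicle lines.

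Zbtb16 encodes PLZF, a zinc finger transcription factor with a BTB domain that androgens and glucocorticoids induce. Its log2 intensity was 10.002, 10.24 and 10.24 in AZD1208 lines, 10.52, 10.43 and 10.22 in Vehicle lines, and 9.50, 9.56 and 9.26 on Parental arrays. Every recurrent line was above every Parental array, with AZD1208 1 the lowest line and Vehicle 1 the highest. The difference was 0.83 (SE 0.21, 1.78-fold, 95% interval 0.34 to 1.32), with an unadjusted p of 0.0047 and an adjusted p = 1 in limma, so it did not pass. With the Parental arrays counted as 3 samples, which takes technical spread for biological, it passed (limma, adjusted p = 0.0199). The AZD1208 lines averaged 10.16 ± 0.14 and the Vehicle lines 10.39 ± 0.15 (SD, n = 3 lines each). They differed by -0.23 (95% interval -0.60 to 0.14), with overlapping lines.

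Fkbp5 encodes FKBP51, a co-chaperone of HSP90 in steroid receptor complexes and one of the most widely used readouts of androgen and glucocorticoid action. It was at 9.56, 9.62 and 9.62 in AZD1208 lines, 9.67, 10.03 and 9.87 in Vehicle lines, and 9.55, 9.64 and 9.50 on Parental arrays. AZD1208 lines lay among the Parental arrays, and Vehicle lines lay above both. The recurrent lines as a whole differed from Parental by 0.16 (SE 0.20, 95% interval -0.31 to 0.64, limma adjusted p = 1). AZD1208 lines averaged 9.60 ± 0.03 and Vehicle lines 9.85 ± 0.18 (SD, n = 3 lines each), a difference of -0.25 (SE 0.15, limma adjusted p = 1). The 2 groups did not overlap, and an exact permutation test gave p = 0.1, two-sided, the smallest that 3 lines against 3 allow. The gap was narrow, and after quantile normalization AZD1208 3 (9.77) lay above Vehicle 1 (9.69), so that the groups overlapped. Vehicle 2 stood highest, 0.47 above the Parental mean, with Vehicle 1 at 0.10 and Vehicle 3 at 0.30.

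Pmepa1 encodes a membrane protein that dampens TGF-beta signalling and is induced by androgen in human prostate cells. Its level was 6.46, 6.44 and 6.82 in AZD1208 lines, 6.53, 6.26 and 6.54 in Vehicle lines, and 6.54, 6.57 and 6.54 on Parental arrays. AZD1208 3 was above all other arrays and Vehicle 2 below them, and the groups overlapped. The recurrent lines differed from Parental by -0.04 (95% interval -0.58 to 0.50), and AZD1208 from Vehicle lines by 0.13 (95% interval -0.28 to 0.54). Neither difference passed in limma (adjusted p = 1 in both), which does not show that the groups were equal.

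Mme encodes neprilysin (CD10), a zinc peptidase of the cell surface that breaks down small peptides and is made by prostate epithelium and by stromal cells. It had the largest difference of the 9 members. Its log2 intensity was 10.91, 11.13 and 9.50 in AZD1208 lines, 11.83, 10.31 and 9.68 in Vehicle lines, and 8.45, 8.73 and 8.30 on Parental arrays. All 6 lines were above all Parental arrays, but they spread over 2.33 among themselves, with Vehicle 1 highest and AZD1208 3 lowest. The recurrent mean of 10.56 ± 0.90 (SD, n = 6 lines) stood 2.07 above the Parental mean of 8.49 (SE 0.82, 4.2-fold, 95% interval 0.16 to 3.98). The unadjusted p was 0.0373 and the limma adjusted p = 1. AZD1208 lines (10.51 ± 0.88) and Vehicle lines (10.61 ± 1.11; SD, n = 3 lines each) differed by -0.09 (95% interval -1.54 to 1.35). The sign of that small difference turned with array quality weights (0.48), after quantile normalization (0.0023), without AZD1208 3 (0.41) and without Vehicle 1 (0.52).

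From highest to lowest Mme, the lines ran Vehicle 1, AZD1208 2, AZD1208 1, Vehicle 2, Vehicle 3 and AZD1208 3, with the treatments interleaved. Likeness to Mme was sought among 3083 genes above the cutoff on low values that varied by at least 1 over the 7 samples. Genes with Gm, Rik, Olfr, Mir, Snord or Vmn symbols, or with symbols that start with a digit, were left out of these. The patterns most like Mme were those of Nrbp2 (Pearson r = 0.994 over 7 samples), Pdgfra (r = 0.988) and Hdac11 (r = 0.986). Pdgfra is a receptor for platelet-derived growth factor, and Hdac11 is a histone deacetylase. In the 6 lines alone these correlations were 0.988, 0.977 and 0.993, as descriptions over points that share their arrays. Relative to the Parental mean, Mme stood at 2.42, 2.64 and 1.01 in AZD1208 lines and at 3.34, 1.82 and 1.19 in Vehicle lines. Pdgfra stood at 1.80, 2.37 and 0.77 in AZD1208 lines and at 2.56, 1.59 and 0.997 in Vehicle lines, which is the same order of lines. Steap4, a metalloreductase induced by androgen, was at 3.83, 3.53 and 1.86 in AZD1208 lines and at 4.17, 2.75 and 2.19 in Vehicle lines. It correlated with Mme at 0.973 over 7 samples.

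**Figure D2:**
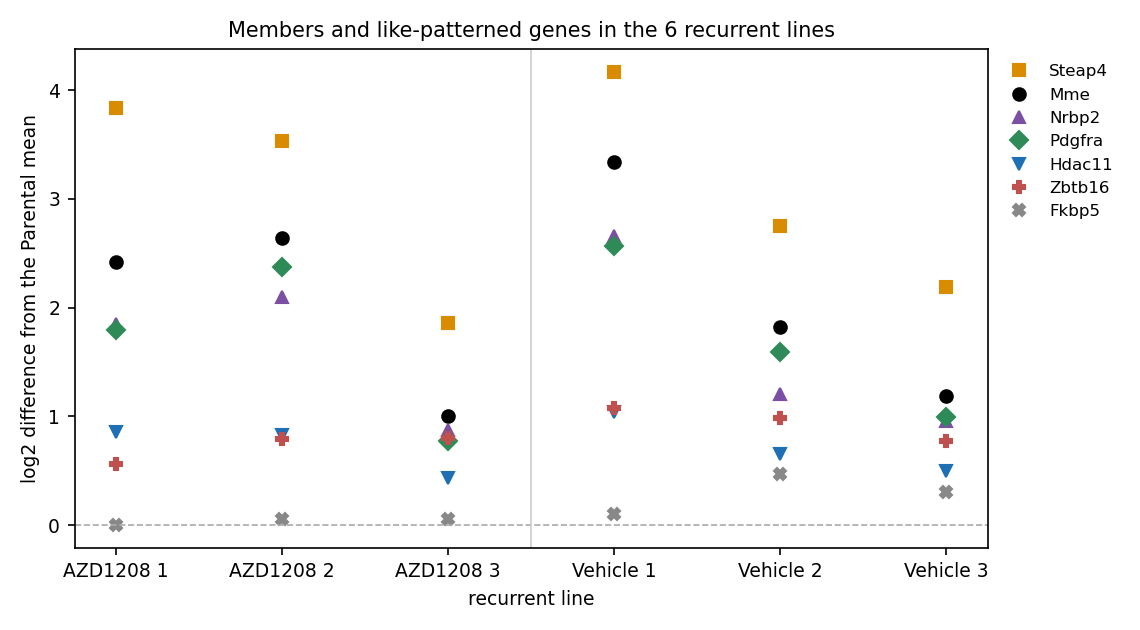
Log2 difference from the Parental mean (y axis) in each of the 6 recurrent lines (x axis) for Mme, Zbtb16 and Fkbp5 and for 4 other genes, 1 point per line. Mme, Steap4, Pdgfra, Nrbp2 and Hdac11 are highest in Vehicle 1 and lowest in AZD1208 3, whereas Zbtb16 stays between 0.56 and 1.08 and Fkbp5 between 0.001 and 0.47.

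Pdgfra is also on the list of fibroblast markers, so the whole list was set beside Mme. Its mean over 10 genes was 7.73 to 8.35 in AZD1208 lines, 7.62 to 8.04 in Vehicle lines and 7.18 to 7.20 on Parental arrays. Of the 8 fibroblast markers above the cutoff, 4 were higher in all 6 lines than on every Parental array, against 6.91% of genes tested, namely Pdgfra, Postn, Fbln2 and Vim. The collagen genes that define fibroblasts did not share this. Col1a1 differed by -0.08 (SE 0.21), Col1a2 by -0.18 (SE 0.24) and Col3a1 by -0.09 (SE 0.23). The remaining tested marker, Thy1, differed by -0.21 (SE 0.30). The matrix genes Dcn and Lum were below the cutoff on low values by their means. Dcn nevertheless reached 6.68 in AZD1208 2, against 5.22 to 5.47 on Parental arrays. In such bulk RNA a larger share of some cells and more RNA per cell cannot be told apart. The part of other cells in the Mme difference was not tested. Mme also followed the first principal component, on which AZD1208 2 and Vehicle 1 lay farthest from Parental.

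Zbtb16 had another pattern. In the same set of genes, those most like it over the 7 samples were Ltbp4, a binding protein of latent TGF-beta (r = 0.945), the homeobox gene Hoxb9 (r = 0.942) and the kinase gene Dyrk1b (r = 0.938). In the 6 lines alone these correlations were lower, at 0.815, 0.796 and 0.722. Zbtb16 and Mme correlated at 0.712 over 7 samples and at 0.30 over the 6 lines. Fkbp5 and Mme correlated at 0.011 over 7 samples and at -0.342 over the lines. Fkbp5, Pmepa1, Tmprss2 and Azgp1 varied by less than 1 over the samples and were given no like-patterned genes.

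Tmprss2 encodes a serine protease of the cell surface that androgen induces in the prostate and whose human promoter is fused to ERG in many prostate cancers. It was at 5.84, 5.83 and 6.49 in AZD1208 lines, 5.95, 5.98 and 6.06 in Vehicle lines, and 6.05, 6.15 and 6.15 on Parental arrays. In 5 of 6 lines it was below the Parental mean of 6.12, and AZD1208 3 stood above all other arrays. The recurrent lines differed from Parental by -0.09 (95% interval -0.74 to 0.55), and by -0.20 without AZD1208 3. AZD1208 differed from Vehicle lines by 0.06 (SE 0.21), which turned to -0.16 without AZD1208 3 and to -0.10 with array quality weights. AZD1208 3 was the highest line for 3 members, Tmprss2, Pmepa1 and Klk1, and its array had the narrowest interquartile range. After quantile normalization, which gives all arrays 1 distribution, Tmprss2 was at 6.42 in AZD1208 3 and at 5.86 to 6.04 in the other 5 lines. On the same scale Pmepa1 was at 6.75 in AZD1208 3 and at 6.31 to 6.54 in the others, and Klk1 at 5.21 and at 4.21 to 4.64. The part of that array's range in the values of the 3 members was not tested.

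Among the secreted proteins, Azgp1 encodes zinc-alpha-2-glycoprotein, a relative of MHC class I molecules. Its log2 intensity was 6.21, 6.32 and 6.33 in AZD1208 lines, 6.21, 5.87 and 6.45 in Vehicle lines, and 6.06, 6.21 and 6.23 on Parental arrays. The groups overlapped in every comparison. The recurrent lines differed from Parental by 0.06 (95% interval -0.50 to 0.63) and AZD1208 from Vehicle lines by 0.11 (95% interval -0.31 to 0.54).

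Pbsn, Msmb and Klk1 had means over the 9 arrays of 4.03, 4.64 and 4.68, under the cutoff of 5.82 that left out the dimmest 30% of genes. The nearest member above the cutoff was Tmprss2, with a mean of 6.06. Statistics for these 3 genes come from the fit of all 22180 genes, and a difference between dim probe sets can be understated. Msmb encodes a small secreted protein of the gland, beta-microseminoprotein. It was at 4.51, 4.39 and 4.72 in AZD1208 lines, 4.76, 4.72 and 4.61 in Vehicle lines, and 4.69, 4.77 and 4.63 on Parental arrays. The groups overlapped, with a difference of -0.08 between recurrent lines and Parental (95% interval -0.51 to 0.35) and of -0.15 between AZD1208 and Vehicle lines (95% interval -0.48 to 0.17).

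Klk1 encodes tissue kallikrein, a secreted serine protease that releases kinins. It was at 4.57, 4.37 and 5.24 in AZD1208 lines, 4.65, 4.63 and 4.25 in Vehicle lines, and 4.14, 5.24 and 4.99 on Parental arrays. The technical arrays of the 1 Parental sample spread as widely as the lines did, with an SD of 0.58 against 0.34 over the 6 lines. No difference could be seen against that spread. The recurrent lines differed from Parental by -0.17 (95% interval -0.94 to 0.61), a value that turned to 0.06 when the second Parental array was left out.

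Pbsn encodes probasin, a secreted lipocalin of the rodent prostate whose promoter is the usual driver of prostate transgenes. It was at 3.64, 3.91 and 3.82 in AZD1208 lines, 4.36, 4.21 and 4.21 in Vehicle lines, and 4.04 on each of the 3 Parental arrays. All AZD1208 lines were below Parental and all Vehicle lines above it. AZD1208 lines averaged 3.79 ± 0.14 and Vehicle lines 4.26 ± 0.08 (SD, n = 3 lines each). The difference was -0.47 (SE 0.13, 1.38-fold lower, 95% interval -0.78 to -0.15), with an unadjusted p of 0.00946 in limma and an adjusted p = 1 over 22180 genes. A two-sided exact permutation test gave p = 0.1, the smallest it allows. The sign held in all 17 alternatives, between -0.53 and -0.39. These values are among the dimmest 7.75% of genes by mean, and the equal Parental values were identical to 6 decimals, so that they give no measured spread. Whether probasin RNA was present in any of these cells cannot be read from this probe set.

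**Figure D3:**
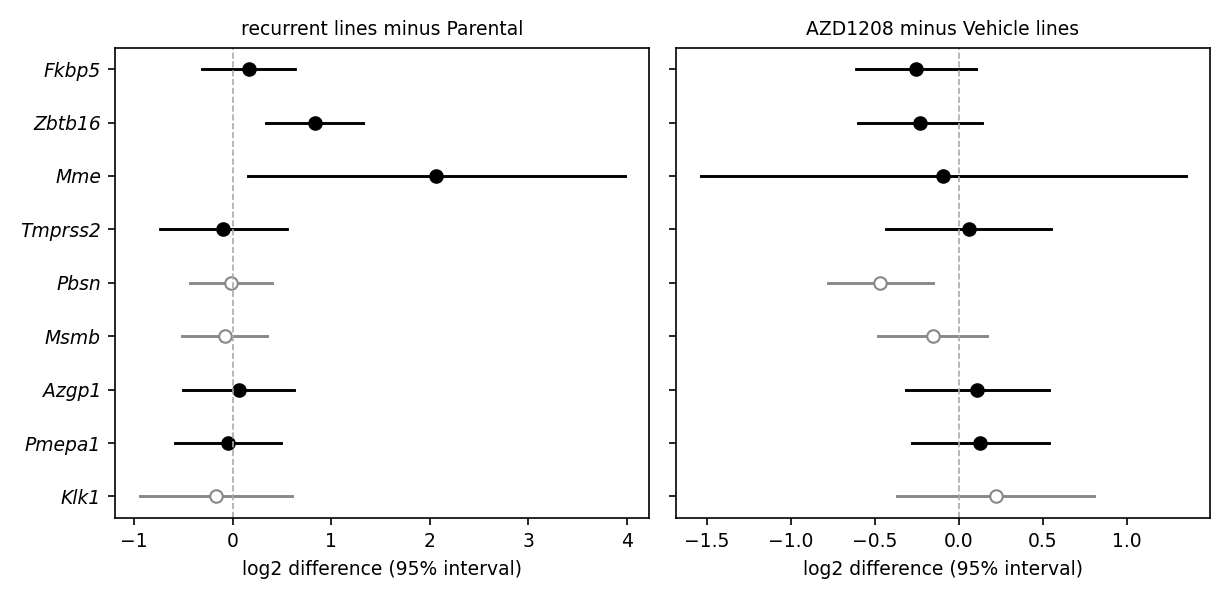
Log2 difference (x axis, point) with its 95% interval (line) from limma for the 9 members, recurrent lines minus Parental on the left and AZD1208 minus Vehicle lines on the right. Open grey points mark the 3 dim members, and the intervals are not adjusted for the number of genes. On the left only Zbtb16 (0.34 to 1.32) and Mme (0.16 to 3.98) have intervals above 0, and on the right only Pbsn (-0.78 to -0.15) has an interval below 0.

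Over the whole array, 0 genes passed the adjusted threshold of 0.05 in limma in any of the 4 comparisons (0%). At an unadjusted p under 0.05, 2.00% of 15526 genes were higher and 0.754% lower in recurrent lines than in Parental. Of the 6 members tested there, Zbtb16 and Mme were in that range, both higher. Between AZD1208 and Vehicle lines 0.155% of genes were higher and 0.361% lower at that level, and of the 6 members tested 0 were. Vehicle lines were all above all Parental arrays for 4 of 9 members (Fkbp5, Zbtb16, Mme and Pbsn), against 12.2% of all genes, and all below for 0, against 9.59%. AZD1208 lines were all above them for 2 of 9 members (Zbtb16 and Mme), against 7.49%, and all below for 1 (Pbsn), against 10.1%. These comparisons share the Parental sample. AZD1208 lines were all below Vehicle lines for 2 of 9 members, Fkbp5 and Pbsn, against 2.29% of all genes, and all above for 0, against 1.92%. The median difference of the 9 members was -0.02 between recurrent lines and Parental and -0.09 between AZD1208 and Vehicle lines. Of the 9, 4 were higher and 5 lower in recurrent lines on average, where 45.3% of genes tested were higher and 54.7% lower. Over all genes tested both medians were -0.02.

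The wider androgen pathway was described with lists of related genes, by differences between recurrent lines and Parental unless another comparison is named. Of 17 genes tested for the androgen receptor's partners, 10 were higher and 7 lower, 0 past the adjusted threshold, with a median of 0.11. Over all genes tested, 45.3% were higher and 54.7% lower. Higher in all 6 lines than on every Parental array were 4 of the 17, against 6.91% of genes tested, among them the coactivator genes Ncoa1 (0.60, SE 0.23), Ncoa2 (0.51, SE 0.26) and Ep300 (0.43, SE 0.24). Lower in all 6 was 1 of the 17, against 5.09%, namely Fkbp4 (-0.69, SE 0.40), which encodes the HSP90 co-chaperone FKBP52. Fkbp4 was at 11.15, 10.43 and 11.10 in AZD1208 lines, 10.41, 11.21 and 11.33 in Vehicle lines and 11.67, 11.51 and 11.72 on Parental arrays. Its lowest lines, Vehicle 1 and AZD1208 2, were the highest for Mme.

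Of 23 other androgen-induced genes tested, 16 were higher and 7 lower in recurrent lines than in Parental, with 0 past the threshold and a median of 0.20. In all 6 lines 7 were above every Parental array and 1, the polyamine enzyme gene Odc1 (-0.57, SE 0.36), was below, against 6.91% and 5.09% of the genes tested. Odc1 was named after its values were seen. Those of smallest unadjusted p were Steap4 (3.06, SE 0.85), the kinase gene Stk39 (0.84, SE 0.31), the efflux transporter gene Abcc4 (0.68, SE 0.28) and Rab4a, a small GTPase of endosomes (0.49, SE 0.22). Between AZD1208 and Vehicle lines 6 of the 23 were higher and 17 lower, with a median of -0.10 and 0 past the threshold. Over all genes tested, 45.2% were higher and 54.8% lower in that comparison. Among the receptor's partners 3 were higher and 14 lower. For the lists that follow these counts were 4 and 7 (glucocorticoid receptor), 5 and 5 (androgen withdrawal) and 3 and 1 (accessory glands). They were 7 and 6 for the kallikreins and 14 and 10 for the relatives.

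Of 11 genes that the glucocorticoid receptor also controls, 6 were higher and 5 lower, with a median of 0.02 and 0 past the threshold. Ddit4, an inhibitor of mTORC1, was higher by 1.13 (SE 0.33), Dusp1, a MAP kinase phosphatase, by 0.71 (SE 0.41) and the transcription factor gene Cebpd by 0.65 (SE 0.34). Sgk1, a kinase induced by steroids, was lower by 0.41 on the log2 scale (difference -0.41, SE 0.22). In all 6 lines 3 of the 11 were above every Parental array and 1 was below, against 6.91% and 5.09% of genes tested. They are these 4 genes, which are also the 4 of smallest unadjusted p in the list. Of 10 genes reported to be higher after androgen withdrawal, 7 were higher and 3 lower, with a median of 0.35 and 0 past the threshold. Over all genes tested, 45.3% were higher and 54.7% lower. In all 6 lines 4 of the 10 were above every Parental array, against 6.91% of genes tested, namely Igfbp5, which binds insulin-like growth factors (4.48, SE 0.48), the matrix Gla protein gene Mgp (2.12, SE 0.70), the secreted chaperone gene clusterin, Clu (0.79, SE 0.29), and the cathepsin gene Ctsb (0.42, SE 0.26).

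**Figure D4:**
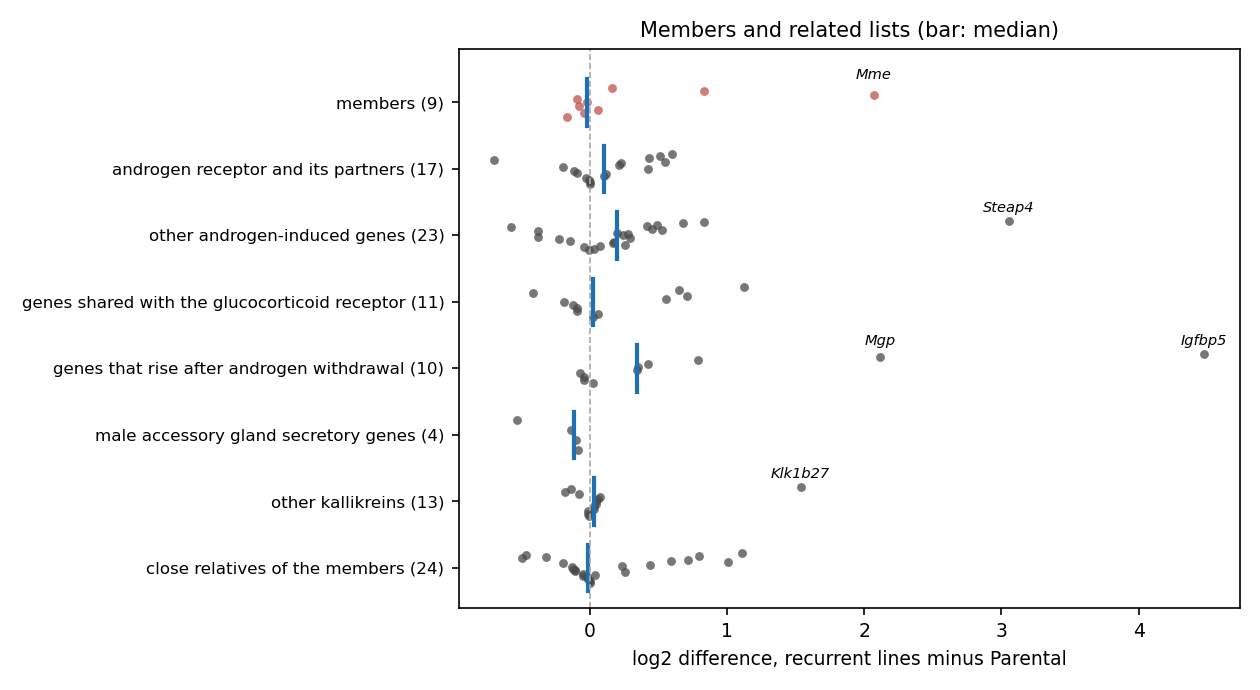
Log2 difference of recurrent lines minus Parental (x axis) for the 9 members and for the tested genes of 7 related lists (rows, number of genes in brackets), 1 point per gene with a bar at the median. Most points lie within 1 of 0, and the labelled points farthest to the right are Mme, Steap4, Igfbp5, Mgp and Klk1b27.

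Of the secretory genes of male accessory glands, 4 of 16 with a value passed the cutoff. All 4 were lower in recurrent lines on average, where 54.7% of genes tested were, with 0 past the threshold. Below every Parental array in all 6 lines was 1 of the 4, Apof (-0.53, SE 0.24), against 5.09% of genes tested. Wfdc3 (-0.14), Pigr (-0.10) and Tgm4 (-0.09) lay within their SE of 0. Of 22 other kallikrein genes with a value, 13 were tested, 7 higher and 6 lower, with a median of 0.03. Over all genes tested, 45.3% were higher and 54.7% lower. Klk1b27 differed most, at 1.54 (SE 1.02, limma adjusted p = 1). It was at 6.62, 8.41 and 7.02 in AZD1208 lines, 9.39, 6.68 and 6.84 in Vehicle lines, and 5.56, 6.11 and 6.202 on Parental arrays. Klk1b27 was the 1 gene of the 13 with all 6 lines above every Parental array, against 6.91% of genes tested. Vehicle 1 and AZD1208 2 were again the highest. Klk10 (-0.14), Klk7 (-0.18) and Klk4 (-0.07) were the next by p. Klk1 and the Klk1b genes are close copies of each other, and whether a probe set also reads a neighbour's RNA was not tested.

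Of 24 close relatives of the members, 11 were higher and 13 lower, with a median of -0.01 and 0 past the threshold. Over all genes tested, 45.3% were higher and 54.7% lower. In all 6 lines 3 of the 24 were above every Parental array and 1 was below, against 6.91% and 5.09% of genes tested. Bcl6, a BTB zinc finger repressor like PLZF, was higher by 1.11 (SE 0.39) and Zbtb32, another gene of that family, was lower (difference -0.47, SE 0.20), each in all 6 lines. Among the relatives of Fkbp5, Fkbp9 differed by 0.80 (SE 0.43), in all 6 lines, and Fkbp2 by -0.32 (SE 0.21).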

How the data were processed

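RNA was measured on 9 arrays of the Affymetrix type Mouse Gene 2.0 ST. The authors deposited log2 intensities for each probe set, made with oligo per the submitters' processing notes. Its version, the background correction, the normalization and the genome build were not stated in what was used. The number of arrays limits the precision. Of 41345 probe sets, 23521 had 1 symbol, 1814 several (named for none) and 16010 were unlisted. The brightest probe set stood for each of 22180 genes. The dimmest 30% by mean (below 5.82) were left out, which left 15526.

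The Parental arrays were averaged to 1 sample, so that its variation is taken to equal that between recurrent lines. limma 3.58.1 (R 4.3.3; lmFit, then eBayes) was fitted to the 7 samples (4 residual and 3.37 prior degrees of freedom), with Benjamini-Hochberg adjustment over every gene in the fit. The labels call the lines biological replicates without saying that each came from its own mouse, so a p-value refers to the spread of these lines alone. Members and lists were chosen with earlier results of these data known. All 9 members are named. From each related list up to 4 genes with the smallest unadjusted p are named, and likeness used Pearson r. Deviations of same-numbered AZD1208 and Vehicle lines correlated at 0.147, 0.119 and 0.531, each over 0.1. AZD1208 2 and Vehicle 1 correlated at 0.263, above 0.147 and 0.119. The numbers therefore do not clearly pair the lines by these data, and no label says that they do. The fit without the replicate block stayed the main one. In simulated data of independent normal noise, 67, 67 and 66 of 15526 genes were given log2 differences of 1, 2 and 3 in each comparison. For recurrent lines against Parental 22.4% of those set at 1 were called, and 86.6% of those set at 2. For AZD1208 against Vehicle lines these were 47.8% and 85.1%. The changed genes themselves ease the adjusted threshold, and 0 genes passed in the measured data. These rates may therefore overstate the power of the measured comparisons.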

Additional observations from a re-analysis of the deposited data

Results flagged for a closer look

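Tmprss2 in AZD1208 3 (6.49) stood apart from the other 5 recurrent lines (5.83 to 6.06). Its gap to the nearest line was 0.654 of the range of the 6 lines, above Dixon's 95% critical value for 6 samples, which chance exceeds in about 1 of 20 groups. All 9 members were examined in this way, and the other 8 had ratios of 0.255 to 0.595. Pbsn differed between AZD1208 and Vehicle lines by -0.468, with all AZD1208 lines below and all Vehicle lines above the Parental value. The difference itself had an unadjusted p of 0.00946 in limma over 22180 genes, an adjusted p = 1 and a two-sided exact permutation p = 0.1.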

How the results depend on the processing

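Across 46 differences of named genes and 708 recomputations, 691 kept their sign and side of the threshold. No gene passed in any of the 4 comparisons as reported. With the Parental arrays as 3 samples, 156 genes passed for recurrent lines, 53 for Vehicle lines and 41 for AZD1208 lines against Parental. Of the members, Zbtb16 (limma, adjusted p = 0.0199) was among the 156 and Mme (0.0758) was not. With array quality weights 1 passed for recurrent and 2 for AZD1208 lines against Parental. With single arrays left out, the counts were 0 to 1 for AZD1208 against Parental and 0 otherwise. With the replicate block 0 genes passed for AZD1208 against Vehicle lines, and Pbsn differed by -0.468, so the block changed no call. Members with all lines on one side of Parental numbered 2 to 3 with single arrays left out, 3 (with Fkbp5) without the second Parental array. Members at the smallest exact p between AZD1208 and Vehicle lines were 2 as reported, 1 after quantile normalization and 1 to 3 with single arrays left out. Signs turned for differences from Parental of Pbsn (-0.0480 to 0.0204 with single arrays left out), Azgp1 (-0.00397 to 0.14), Pmepa1 (-0.10 to 0.0051) and Klk1 (-0.49 to 0.0576). Between AZD1208 and Vehicle lines they turned for Mme (0.0023 after quantile normalization, 0.48 with array quality weights, -0.56 to 0.52 with single arrays left out), Tmprss2 (-0.10 with array quality weights, -0.16 to 0.17), Azgp1 (-0.0410 to 0.25) and Klk1 (-0.0382 to 0.40). The causes were not tested. The values come with no measure of background signal, so no detection limit could be set for dim genes.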

Other observations

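Exact repeats of a value among the 9 arrays were common in these data. Of the 6654 genes left out as dim, 54.7% had a value that occurred on at least 2 arrays to 6 decimals, against 30.4% of the 15526 genes tested. The 3 Parental arrays were equal in 2.46% of the dim genes and in 1.09% of the others. Pbsn is one of the dim genes with 3 equal Parental values. For Azgp1 the value 6.21 and for Pmepa1 the value 6.54 each occurred on 3 arrays. For such genes the SD of technical arrays is no measure of their error.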
